A study of Capra hircus with 198 samples.

Results

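Chemokines and their receptors were taken from an expression atlas of the Murciano-Granadina dairy goat as every feature of the gene count table whose symbol starts with CCL, CXCL, CX3CL, XCL, CCR, CXCR, CX3CR, XCR or ACKR and ends in a number. This rule picked 42 of 39734 features: 23 ligands, 16 receptors and 3 atypical receptors. The atlas holds 1 total RNA library from each of 33 tissues in each of 6 adult females. The lactating goats are numbered 2, 3 and 6 and the dry goats 54, 64 and 73, so each tissue has 6 libraries and each state has 3 animals. All 6 goats are of 1 breed, and the labels used here name no treatment and give no ages. No XCL or CX3CL gene other than CX3CL1 met the rule, and chemokines filed under another symbol were not analysed here.

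Chemokines are small secreted proteins that draw leukocytes along a concentration gradient by binding receptors coupled to G proteins on the cell surface. Some act as constant signposts that lead lymphocytes into lymph nodes, gut or skin, while others are made on demand during inflammation. Atypical receptors of the ACKR group bind chemokines without this signalling and remove or hold them.

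Counts of these genes were low. The median library total was 4.63 M counts, the lowest 1.31 M and the highest 8.97 M, and lncRNA features took 85.9% of the counts on average. The 42 genes together held between 94.8 and 1196 counts per library, with a median of 361, or 0.00786% of the library. A floor of 3 counts stood between 0.335 and 2.29 CPM, the count scaled by the library's total, and covers counting error only. Of all libraries, 174 had their own tissue as the closest mean profile and 24, spread over 15 tissues, lay closer to another tissue. These 24 include the duodenum and abomasum of goat 2, each closer to the other tissue, all 3 lactating pineal glands, which lay closest to hypothalamus or rhinencephalon, and 1 dry mammary gland, that of goat 54. Values below are mean CPM ± SD over 6 goats unless said otherwise. They compare 1 gene between tissues and not 1 gene with another, since absolute gene lengths were not given. In such bulk tissue, fewer cells of a type and less RNA per cell cannot be told apart.

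The genes were spread unevenly over the body. Of the 42, 38 reached a mean of 1 CPM in at least 1 tissue, and 6 did so in all 33 tissues: the receptors CCR9, CXCR5, CXCR6 and XCR1, the ligand CXCL16 and the atypical receptor ACKR4. Tau, an index from 0 for even levels to 1 for a single tissue, had a median of 0.671 over the 38, against 0.474 over protein-coding genes that passed the same minimum. It reached 0.8 in 39.5% of the 38 and in 14.2% of those protein-coding genes. Those genes were not matched to the members for level, and 11 of the 42 members were above 0 in fewer than 50 libraries. The part of low counts in this gap was not tested. The mandibular lymph node and subcutaneous fat each held the highest mean of 6 members, the liver of 5, and the mammary gland and spleen of 4 each. In the map of all members, CXCR6, CXCL16, CCR10 and XCR1 have the lowest tau.

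**Figure D1:**
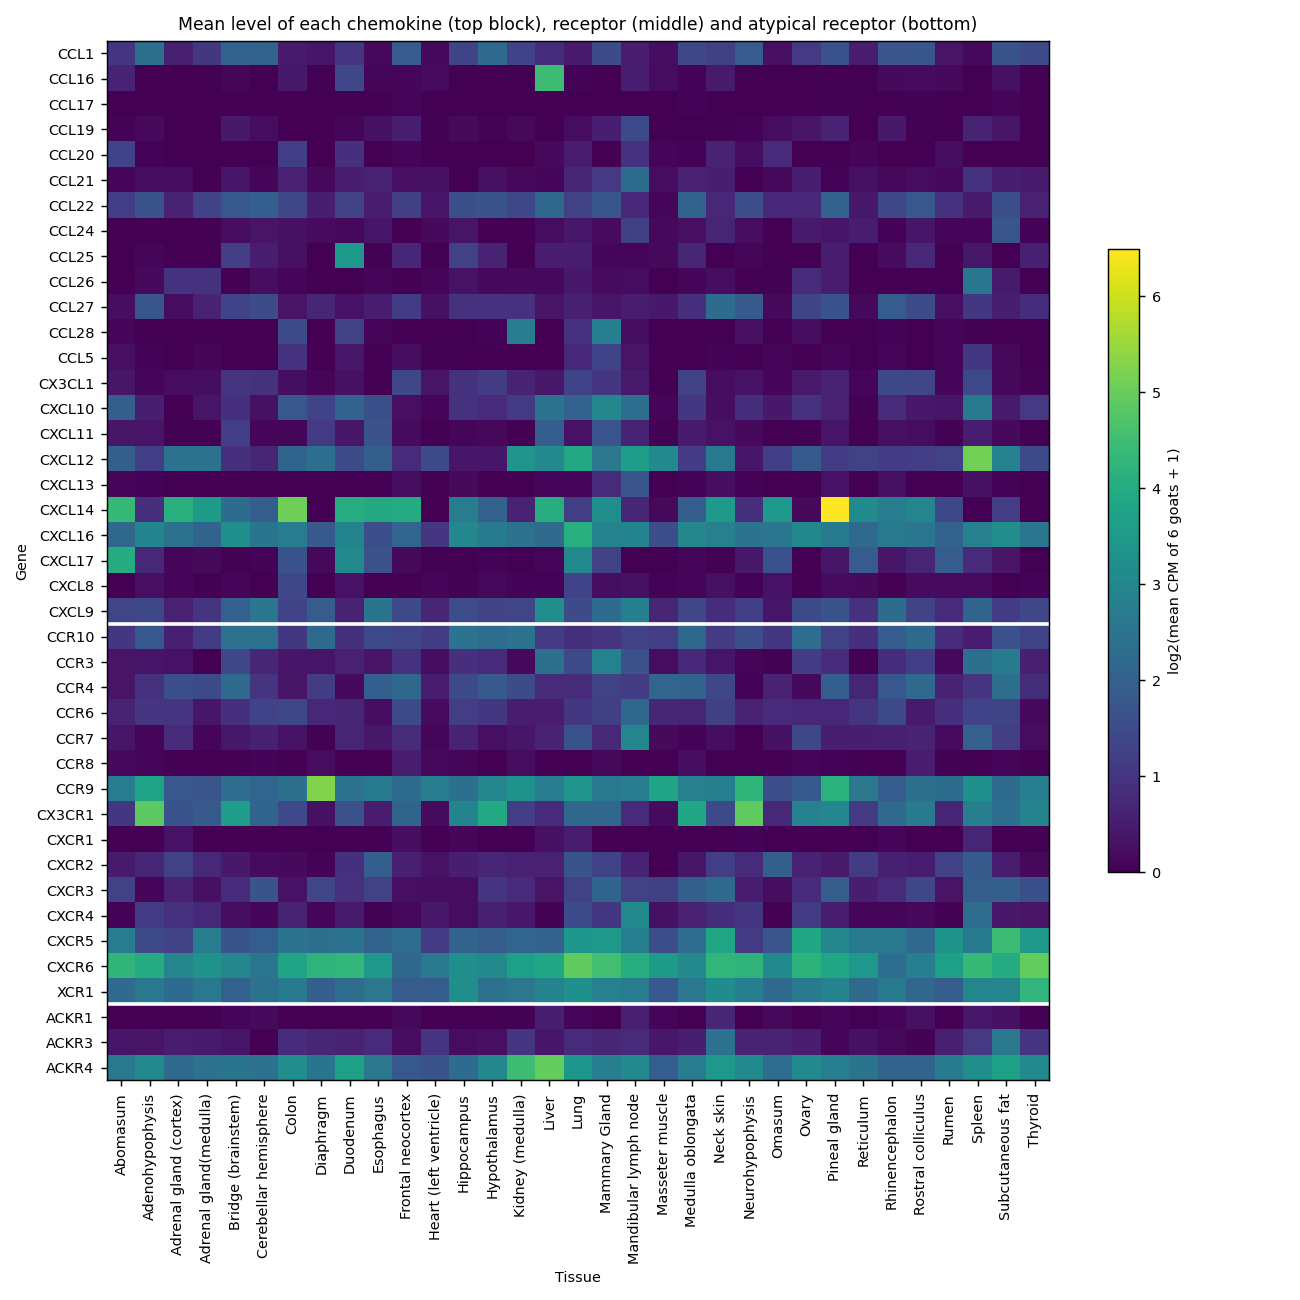
Mean CPM of the chemokine and receptor genes described here (rows, grouped by role) in the 33 tissues (columns, n = 6 libraries each), drawn on a log2(CPM + 1) colour scale. Filled rows such as CXCR6 reach 1 CPM in every tissue, while CCL16 is filled in the liver, CCL25 in the duodenum and CCL26 in the spleen.

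CCR7, CCL19, CCL21, CXCL13 and CXCR4 had their highest means in the mandibular lymph node and CXCL12 in the spleen, while CXCR5 was highest in subcutaneous fat. CCR7, the receptor that brings naive T cells and dendritic cells into lymph nodes, ran from 2.16 through a median of 5.85 to 13.9 CPM in the mandibular lymph node and from 1.70 through 2.64 to 5.78 CPM in the spleen. The tissue means were 6.90 ± 4.41 and 2.98 ± 1.49 CPM, and the libraries of the tissues overlapped. CCL21, a CCR7 ligand of lymphatic vessels and T zones, had its highest mean in the lymph node at 3.92 ± 3.06 CPM (lowest 0.909, median 3.06, highest 9.05), followed by the mammary gland at 1.13 CPM. CCL19, the other CCR7 ligand, averaged 1.75 ± 0.98 CPM in the lymph node and 0.563 CPM in the pineal gland, the next tissue. Both ligands and their receptor therefore shared the same top tissue. Over the 33 tissue means, Spearman's rank correlation with CCR7 was 0.589 for CCL19 and 0.374 for CCL21, values that share libraries and depth and are given as a description.

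CXCL13, the follicle chemokine that attracts B cells, was highest in the lymph node at 2.27 ± 2.03 CPM, with 1 library at 0 and the highest at 5.82. It averaged 0.747 CPM in the mammary gland and 0.219 CPM in the spleen. Its receptor CXCR5 did not share this order. CXCR5 was highest in subcutaneous fat at 20.8 ± 18.1 CPM (lowest 7.01, median 13.7, highest 56.2), then in ovary at 13.8 ± 9.87, neck skin at 13.5, thyroid at 10.5 and mammary gland at 10.2 CPM. It was counted in 190 libraries. In the annotation of assembly ARS1.2 CXCR5 overlaps BCL9L, a coactivator of Wnt signalling, and the rank correlation between CXCR5 and BCL9L over the tissues was 0.619. The labels do not say how counting used the strand, so a read from either of 2 overlapping genes may have been counted for the other. The rank correlation of CXCL13 with CXCR5 was 0.336.

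CXCL12, the stromal chemokine that holds leukocytes and precursors in place through CXCR4, had its highest mean in the spleen, where its libraries ran from 25.4 through 35.5 to 38.4 CPM (mean 33.3 ± 5.54). Lung followed at 14.2 ± 5.55 CPM and the lymph node at 11.2 ± 9.74 CPM (lowest 1.57, median 7.68, highest 28.3). CXCR4 averaged 7.47 ± 3.84 CPM in the lymph node and 4.03 ± 2.94 CPM in the spleen. Ligand and receptor thus had different top tissues, and the rank correlation between them was 0.314. CXCL12 overlaps LOC108634142 in the ARS1.2 annotation, and the rank correlation between this pair of features was 0.847. CCL26, known as an eosinophil attractant that acts on CCR3, was highest in the spleen at 4.90 ± 2.32 CPM, and the next tissue, the adrenal cortex, stood at 0.931 CPM, where the floor of 3 counts ran from 0.533 to 0.645 CPM. In 5 of the 6 spleens CCL26 lay above every library of every other tissue.

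**Figure D2:**
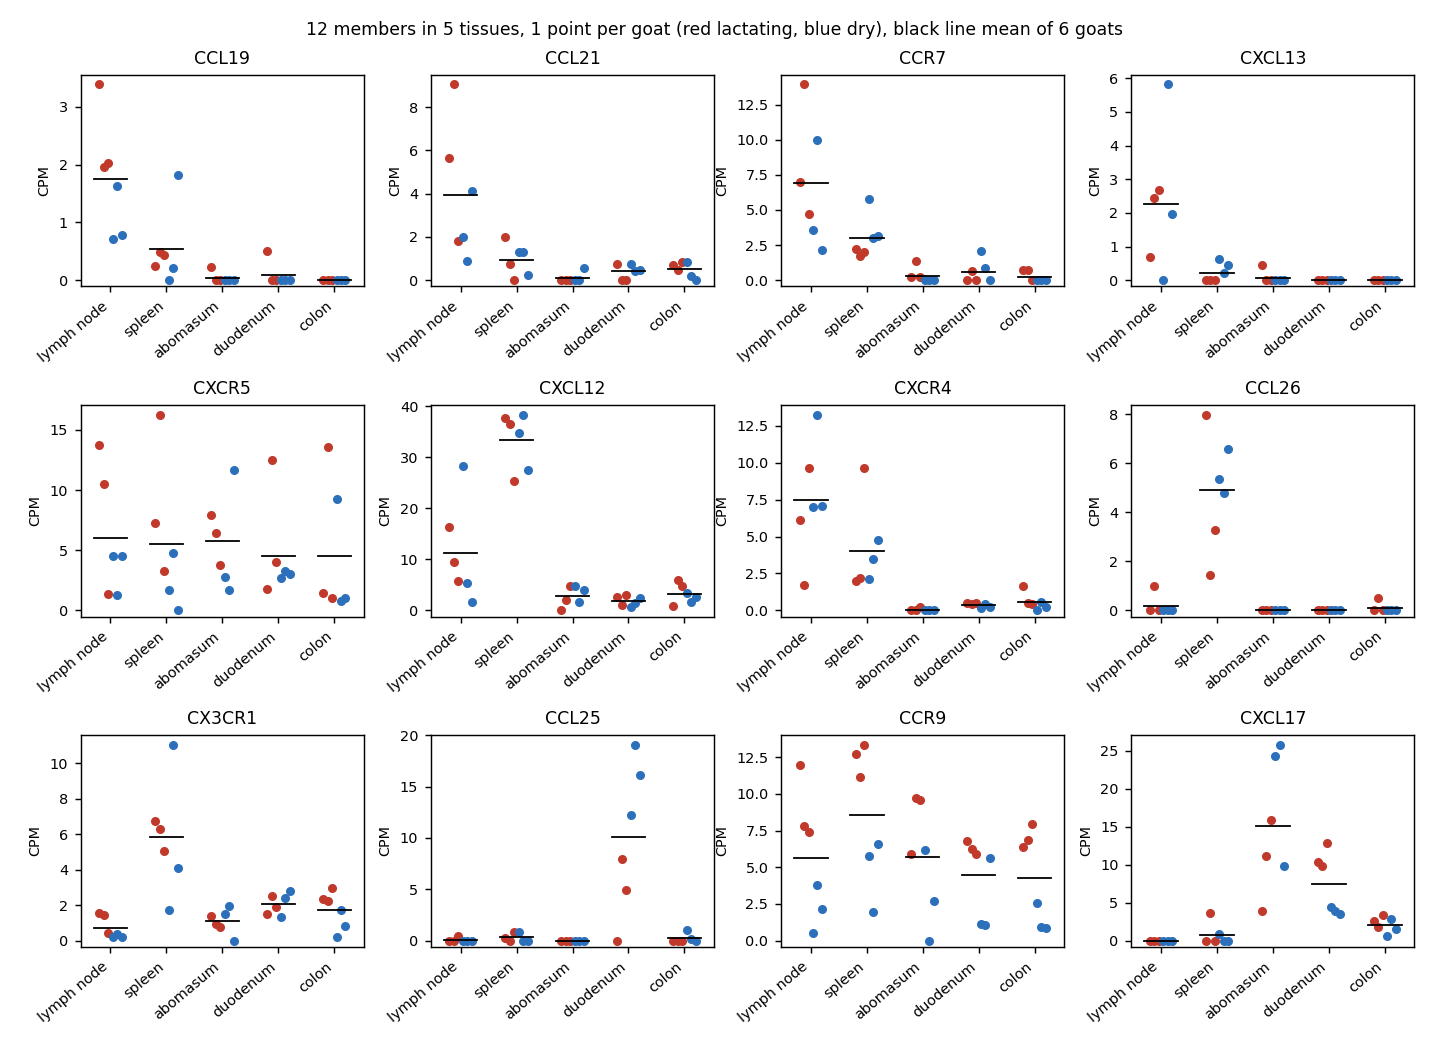
CPM of 12 members in lymph node, spleen, abomasum, duodenum and colon (1 point per goat, lactating red and dry blue, black line the mean of 6 goats). CCR7 and CXCR4 are highest in the lymph node and overlap with the spleen, CXCL12 lies between 25.4 and 38.4 CPM in the spleen, CCL25 is highest in duodenum, and CXCR5 and CCR9 are spread over all 5 tissues.

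The lymph node and spleen differ in how lymphocytes enter them, and T and B cell markers were counted in both. The summed T cell markers averaged 128 CPM in the lymph node and 183 CPM in the spleen, and the B cell markers 126 and 76.8 CPM. Of 13 members tested between the 6 lymph nodes and 6 spleens, 0 passed edgeR's quasi-likelihood test, where 3.22% of all 17667 features tested did. DESeq2 also called 0, and 3 members stood at an unadjusted p under 0.05. These were CXCL12, with a log2 fold change (lymph node over spleen) of -1.36 (SE 0.463, adjusted p = 0.132 in edgeR), CCR7 at 1.24 (SE 0.447, adjusted p = 0.156) and CXCR4 at 1.05 (SE 0.50, adjusted p = 0.307). With the goat as a block, the CXCL12 difference was -1.82 (SE 0.364) and passed in edgeR with an adjusted p of 0.00699. Without goat 54 it also passed, at -2.06 with an adjusted p of 0.00534. For CCL26 and for CX3CR1 every spleen lay above every lymph node, and without the filter on low counts these 2 passed in edgeR (adjusted p = 0.001015 and 0.00394). Such a separation was found in this direction for 1.44% of all features with a count.

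In the gut, CCL25 had its highest mean in the duodenum and CXCL17 in the abomasum, while CXCL14 was second highest in the colon. CCL25, which leads CCR9-bearing T cells to the small intestine and developing T cells within the thymus, had its highest mean in the duodenum. Its duodenal values were 0, 7.91 and 4.98 CPM in the lactating goats 2, 3 and 6 and 12.3, 19.1 and 16.1 CPM in the dry goats 54, 64 and 73. The value of 0 belongs to the goat 2 library that lay closer to abomasum, a tissue in which CCL25 was 0 in all 6 libraries. The duodenal mean of 10.1 ± 7.14 CPM was followed by the hippocampus at 1.41 CPM, where the floor of 3 counts ran from 0.643 to 2.29 CPM, and 4 of the 6 duodenal libraries lay above every library elsewhere. Within the duodenum all 3 dry goats lay above all 3 lactating goats, but the log2 difference of -1.90 (SE 0.785) did not pass edgeR's test (adjusted p = 0.457).

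CCR9, the receptor for CCL25, did not share this pattern. Its highest mean was in the diaphragm, at 37.6 ± 27.4 CPM (lowest 9.07, median 33.2, highest 77.8), followed by neurohypophysis at 18.0, pineal gland at 16.6 and masseter muscle at 13.0 CPM. The diaphragm mean averages over a split by state that is given below. None of the 5 tissues with the highest CCR9 was among the 5 highest for CCL25, and the rank correlation over the tissues was 0.131. The T cell markers summed to 29.0 CPM in the diaphragm and 18.5 CPM in the masseter muscle, against 183 CPM in the spleen. CCR9 neighbours FYCO1, a transport adaptor gene, and LZTFL1 in the ARS1.2 annotation without overlapping either.

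CXCL17, a mucosal attractant of myeloid cells, was highest in the abomasum, the glandular stomach, at 15.1 ± 8.61 CPM (lowest 3.86, median 13.5, highest 25.8), then in lung at 7.55 CPM. In duodenum CXCL17 stood at 10.4, 9.79 and 12.8 CPM in goats 2, 3 and 6 and at 4.42, 3.95 and 3.50 CPM in goats 54, 64 and 73. In colon it was 2.61, 1.72, 3.36, 0.646, 2.86 and 1.48 CPM in the same order. In duodenum all lactating goats lay above all dry goats. The goat 2 duodenum is the library that lay closer to abomasum (correlation 0.929, against 0.901 with duodenum), where CXCL17 was highest. Every duodenal library lay above every colon library, a separation seen for 0.621% of all features with a count. The log2 fold change of 1.86 (SE 0.446) passed edgeR's test (adjusted p = 0.0201), the 1 call among 12 members tested, where 4.86% of all features passed. The call was lost without goat 2, 3 or 6, with adjusted p-values of 0.0569, 0.0956 and 0.0615. CCL25 had too few counts for the test, its colon values being 0 in 4 libraries, 1.08 in goat 54 and 0.191 in goat 64. Without the filter on low counts CCL25 was higher in duodenum by 5.42 on the log2 scale (adjusted p = 0.000226 in edgeR). Without the libraries closest to another tissue, CCL25 differed by 5.70 (adjusted p = 5.4e-05).

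CXCL14, an epithelial chemokine that attracts monocytes and other myeloid cells, ranged from 0 in every library of heart, diaphragm, spleen and thyroid to between 155 and 182 CPM in 3 pineal glands. Colon libraries ran from 21.8 through 33.6 to 45.6 CPM (mean 32.5 ± 8.4), and abomasum, adrenal cortex and duodenum averaged 19.3, 16.4 and 15.6 CPM. The goat 2 abomasum held 0 and the goat 2 duodenum 39.5 CPM, and without the libraries closest to another tissue CXCL14 was lower in duodenum than in colon by 1.55 on the log2 scale (adjusted p = 0.00316 in edgeR). The pineal gland had the highest mean, 89.2 ± 88.7 CPM, with values split by state that are described further on. CCL20, which recruits CCR6-bearing cells to mucosal lymphoid tissue, stayed low, at 1.49 CPM in abomasum and 1.295 CPM in colon. CCR6 was highest in the lymph node at 3.57 ± 2.17 CPM, and the rank correlation between CCL20 and CCR6 was 0.149.

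CCL27 and CCL28 both bind CCR10, the first as a skin ligand of keratinocytes and the second as a mucosal and glandular one. CCL27 was highest in neck skin, at 9.26, 2.20 and 1.06 CPM in goats 2, 3 and 6 and 2.94, 3.57 and 3.72 CPM in goats 54, 64 and 73. Goat 2 stood apart and the states overlapped. However, the neck skin library of goat 3 lay closest to diaphragm (correlation 0.897, against 0.854 with neck skin). That of goat 6 lay closest to subcutaneous fat (0.911 against 0.876). Goat 2 thus gave the only lactating library closest to neck skin, and the states cannot be compared on these values. CCL28, which draws antibody-secreting cells to the mammary gland and gut, was 12.8, 4.78 and 12.4 CPM in the lactating mammary glands and 0.205, 5.27 and 0.68 CPM in the dry ones, so that the states overlapped. The mammary mean was 6.02 ± 5.5 CPM, and kidney medulla followed at 5.58 ± 5.37, colon at 1.79 and duodenum at 1.40 CPM. The antisense lncRNA CCL28-AS1 averaged 593 CPM in kidney medulla and 406 CPM in mammary gland. CCR10 was highest in the hippocampus at 4.54 ± 3.23 CPM, where the floor of 3 counts ran from 0.643 to 2.29 CPM. Kidney medulla was nearly level with it at 4.51 ± 3.33 CPM, with a split by state given below. In neck skin CCR10 stayed at or below 2.34 CPM. The rank correlation with CCR10 over the tissues was 0.620 for CCL27 and -0.185 for CCL28.

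CX3CR1, the receptor that marks microglia and patrolling monocytes, had its 5 highest means in the pituitary and brain. Its values ran from 12.8 through 30.9 to 39.4 CPM in the neurohypophysis (mean 29.0 ± 10.1) and from 16.4 through 28.3 to 39.5 CPM in the adenohypophysis (mean 28.1 ± 7.65). The pituitary lobes overlapped fully, and 6 pituitary libraries were closer to another tissue in overall profile. Hypothalamus at 14.3, medulla oblongata at 13.9 and bridge (brainstem) at 11.4 CPM came next. CX3CR1 averaged 5.82 CPM in spleen, with libraries from 1.71 to 11.1, and 0.706 CPM in lymph node, with libraries from 0.18 to 1.58. CX3CL1, its membrane-bound ligand, was low throughout, at 1.73 CPM in spleen and 1.64 CPM in rhinencephalon, and the rank correlation with CX3CR1 was 0.507. CCL1, a ligand of CCR8, was likewise highest in adenohypophysis at 4.26 ± 1.56 CPM and hypothalamus at 3.72 CPM, while CCR8 itself stayed under 1 CPM in every tissue, with its highest mean of 0.413 CPM in frontal neocortex.

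The liver held the highest mean of 5 members. CCL16, a ligand made by hepatocytes, ran from 8.88 through 22.4 to 32.8 CPM there (mean 21.2 ± 8.99), and the duodenum, the next tissue, averaged 1.599 CPM. All 6 livers lay above every other library, and CCL16 was counted in 39 libraries in all. ACKR4, a scavenger of CCL19, CCL21 and CCL25, was tightest in the liver, between 27.5 and 32.3 CPM (mean 30.3 ± 1.87). Kidney medulla had 21.3 ± 18.3 CPM, with a split by state given below, and duodenum 12.1 CPM. ACKR4 overlaps ACAD11, a fatty acid oxidation gene, with a rank correlation of 0.468 over the tissues.

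CXCL9, CXCL10 and CXCL11 are the interferon-induced ligands of CXCR3 on effector T cells. CXCL9 averaged 8.10 ± 4.04 CPM in the liver and 5.999 CPM in the lymph node. CXCL11 averaged 2.82 CPM in liver and 2.30 CPM in mammary gland. CXCL10 was highest in the mammary gland at 7.05 ± 9.61 CPM, where values ran from 0.614 through 3.15 to 26.2, and spleen followed at 5.20 CPM. CXCR3 was highest in neck skin at 3.72 ± 3.42 CPM and mammary gland at 3.28 CPM. All 3 ligands lie next to each other and overlap ART3 in the ARS1.2 annotation. CCL22, which recruits CCR4-bearing regulatory T cells, had close means in liver at 3.47 and medulla oblongata at 3.22 CPM.

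CCR3 and CCL5 had their highest means in the mammary gland, and CCR4, CCL24 and ACKR3 in subcutaneous fat. CCR3, the eosinophil receptor, averaged 6.26 ± 4.24 CPM in mammary gland and 5.45 CPM in fat. Fat held the highest means of CCR4, a receptor of regulatory and helper T cells (4.17 CPM), of the CCR3 ligand CCL24 (2.28 CPM) and of ACKR3, a scavenger of CXCL12 (5.09 ± 1.94 CPM). CCL5, a ligand that attracts T cells and monocytes, reached 1.49 CPM in mammary gland. For each of CCR3, CCR4, CCL24, ACKR3 and CCL5 the highest and the next tissue mean differed by less than the SD over goats in the highest tissue.

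CXCL16, a transmembrane ligand and scavenger of oxidised lipids, was highest in lung, from 10.4 through 14.9 to 23.1 CPM (mean 16.0 ± 5.5). Its receptor CXCR6, which marks tissue-resident T cells, had means of 30.2 ± 20.1 CPM in thyroid, 29.2 ± 18.2 CPM in lung and 22.1 CPM in mammary gland. XCR1, the receptor of cross-presenting dendritic cells, was highest in thyroid, from 11.8 through 17.8 to 27.5 CPM (mean 18.4 ± 5.33), against 8.51 CPM in lung. CXCR6 overlaps FYCO1 in the ARS1.2 annotation, XCR1 neighbours FYCO1, and CXCL16 overlaps ZMYND15. The rank correlation over the tissues was 0.664 for CXCR6 with FYCO1 and 0.298 for CXCR6 with CXCL16. These neighbouring genes were chosen after the data were seen.

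The neutrophil members were low. CXCL8, the main neutrophil attractant, averaged 1.59 CPM in colon and 1.46 CPM in lung. Its receptor CXCR2 averaged 2.92 CPM in omasum, 2.84 CPM in esophagus and 2.60 CPM in spleen, and CXCR1 reached only 0.599 CPM, in spleen. ACKR1, the chemokine sink of venules and red cells, reached 0.619 CPM in neck skin. CCL17, a CCR4 ligand, gave 7 counts in all, in 5 libraries, and no tissue pattern can be read from it.

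Each tissue was then set against the mean of the 32 others in 1 edgeR fit of all libraries, with a call at an adjusted p under 0.05 and a fold of at least 2. The fit had no goat or state term and shared 1 estimate of the spread per feature over all tissues. Its p-values therefore rest on the spread between libraries of a tissue, pooled over all tissues, and not on that of the tissue tested. They also take libraries of the same goat as independent. Of 1056 pairs of a member and a tissue, 213 were higher, where 12% of all such pairs of features and tissues were, and 45 were lower, where 5.07% were. A gene at 0 in some tissues has its mean set by those tissues, so the rest is read from the 16 members counted in every tissue, a restriction made after the data were seen. Over their 528 pairs, 79 were higher (background 8.66%) and 40 lower (background 6.16%).

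ACKR4 was higher in liver by 2.44 on the log2 scale (SE 0.207, adjusted p = 2e-22 in edgeR) and in kidney medulla by 1.99. In kidney medulla all dry goats lay above all lactating goats, as described further on, so this value averages over a split by state. CXCL12 was higher in spleen by 3.69 (SE 0.300, adjusted p = 2.42e-23) and in 8 further tissues, and lower in 6, all of the brain or pituitary, such as hypothalamus at -3.10 and neurohypophysis at -3.27. CX3CR1 rose in 11 tissues, led by adenohypophysis at 3.25 and neurohypophysis at 3.24, and fell in 8, among them lymph node at -2.02. XCR1 was called in 1 of 33 tissues, the thyroid, at 1.81 (adjusted p = 8.72e-12), and CXCL16 was called higher in lung, at 1.43 (adjusted p = 1.26e-06). CCR6 was called higher in 1 tissue, the lymph node, at 2.26 (adjusted p = 5.41e-06).

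CCR9 was higher in diaphragm by 3.54 (SE 0.287, adjusted p = 9.88e-24 in edgeR), in masseter muscle by 2.32, and in heart, pineal gland and neurohypophysis. CXCR5 was higher in 6 tissues, led by subcutaneous fat at 2.11 (adjusted p = 4.58e-07), and CXCR6 in thyroid at 1.31, diaphragm at 1.39 and lung at 1.05. The values of CCR9 in diaphragm and heart and of CXCR6 in diaphragm and lung average over a split by state, as described further on. CCL27 was higher in neck skin by 2.45 (SE 0.505, adjusted p = 5.2e-05) and CXCL9 in liver by 2.44. TMM factors scale whole tissues, so these log2 values need not follow the order of the CPM means: CCR10 was called higher in diaphragm, at 2.01, where its mean ranked 7 among the tissues. Without the 24 libraries closest to another tissue, 11 of the 79 higher calls were lost. Among them were CCR9 in neurohypophysis (adjusted p = 0.194) and CXCR3 in neck skin (adjusted p = 0.190).

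Lactating and dry goats were compared within each tissue to ask which members differed with milk production. The p-values measure the spread between these 6 goats, and state cannot be told apart from any other difference between the sets of animals. An exact permutation test of 3 against 3 cannot go below 0.1, so the edgeR fits across all features were used. Of the 1386 pairs of a member and a tissue, 343 had enough counts to be tested, from 32 members, and 11 passed, or 7 members in 8 tissues. The background was 1.9% of all pairs of features and tissues. Of the 11, 7 were higher in lactation (background 0.925%) and 4 lower (background 0.976%). At an unadjusted p under 0.05 stood 63 pairs (background 12.4%). The goats of the states separated without overlap in 105 of 1128 pairs with lactation higher (background 9.02%) and in 67 with dry higher (background 5.75%).

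CXCR6 rose in 3 tissues. In the diaphragm it stood at 35.2, 30.1 and 29.5 CPM in lactating goats 2, 3 and 6 and at 2.09, 4.47 and 5.15 CPM in dry goats 54, 64 and 73, with a wide gap between the states. The log2 fold change was 2.78 (SE 0.331, adjusted p = 0.000986 in edgeR), where 1.14% of features rose. In masseter muscle CXCR6 was 8.77, 24.4 and 21.3 against 2.77, 2.24 and 4.14 CPM, a change of 1.98 (SE 0.375, adjusted p = 0.0206), where 0.993% of features rose. All lactating values again lay above the dry ones, but the call was lost without goat 3, 6, 54 or 64, and leaving out each goat gave adjusted p-values from 0.0139 to 0.0945. In lung CXCR6 was 49.2, 52.8 and 29.0 against 19.0, 16.2 and 8.73 CPM, a change of 1.40 (SE 0.317, adjusted p = 0.0395), where 1.15% of features rose. The lung call was lost without goat 2, 3, 64 or 73, at adjusted p-values up to 0.138, and with the authors' offsets, at 0.0540.

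FYCO1, which overlaps CXCR6, moved the same way in muscle. It averaged 41.8 ± 13.3 CPM in lactating and 14.99 ± 3.5 CPM in dry diaphragms (log2 1.19, adjusted p = 0.0324 in edgeR) and 41.8 ± 8.3 against 13.3 ± 1.2 CPM in masseter muscle (1.11, adjusted p = 0.0280). In lung the FYCO1 change was 0.37 (adjusted p = 0.533). T cell markers, a list of 11 measured genes, summed to 27.2 to 41.6 CPM in lactating and 20.7 to 31.0 CPM in dry diaphragms, with 4 of 11 genes higher in lactation and CD8B at 0. In lung they summed to 88.3 to 99.0 and 59.6 to 88.6 CPM, and in masseter muscle to 16.7 to 31.1 and 6.19 to 16.9 CPM. Endothelial markers summed to 52.4 to 66.4 CPM in lactating and 17.5 to 26.8 CPM in dry diaphragms and to 53.8 to 88.5 and 19.5 to 28.2 CPM in masseter muscle, with 6 of 7 genes higher in each. In edgeR's test of the diaphragm the fibroblast genes COL1A1 (-2.69), COL1A2 (-1.96), DCN (-1.20) and PDGFRA (-1.89) fell and none of that list passed as higher. VWF (2.48) and PECAM1 (1.585) of endothelium and CSF1R of macrophages (1.355) rose in the diaphragm. In masseter muscle VWF rose (2.355) and no fibroblast gene passed. In lung the macrophage gene CSF1R rose (1.15) and C1QB of the same list fell (-1.15). The part of these cell types in the CXCR6 result was not tested.

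CCR9 rose in the diaphragm and the heart. In the diaphragm it was 57.3, 77.8 and 46.9 CPM in lactating goats 2, 3 and 6 and 9.07, 19.6 and 14.7 CPM in dry goats 54, 64 and 73 (log2 1.81, SE 0.269, adjusted p = 0.00391 in edgeR). In the left ventricle of the heart it was 9.34, 6.79 and 13.6 against 1.597, 0.863 and 1.45 CPM (2.66, SE 0.446, adjusted p = 0.00515), where 2.15% of features rose. The states did not overlap in either tissue, and both calls held with any 1 goat left out. T cell markers in the heart summed to 15.5 to 25.4 CPM in lactation and 13.1 to 15.7 CPM in dry goats, with 5 of 11 genes higher. Endothelial markers summed to 42.9 to 65.9 and 21.8 to 36.9 CPM (6 of 7 higher), macrophage markers to 17.2 to 23.3 and 9.81 to 14.3 CPM (5 of 9 higher), and fibroblast markers to 35.5 to 51.5 and 79.5 to 98.1 CPM (1 of 6 higher). In edgeR's test of the heart, VWF of endothelium (1.79) and CSF1R of macrophages (1.75) rose, while the fibroblast genes DCN (-1.41), LUM (-1.47) and COL3A1 (-1.29) and the plasma cell gene JCHAIN (-2.78) fell. The part of these cell types in the CCR9 result was not tested.

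**Figure D3:**
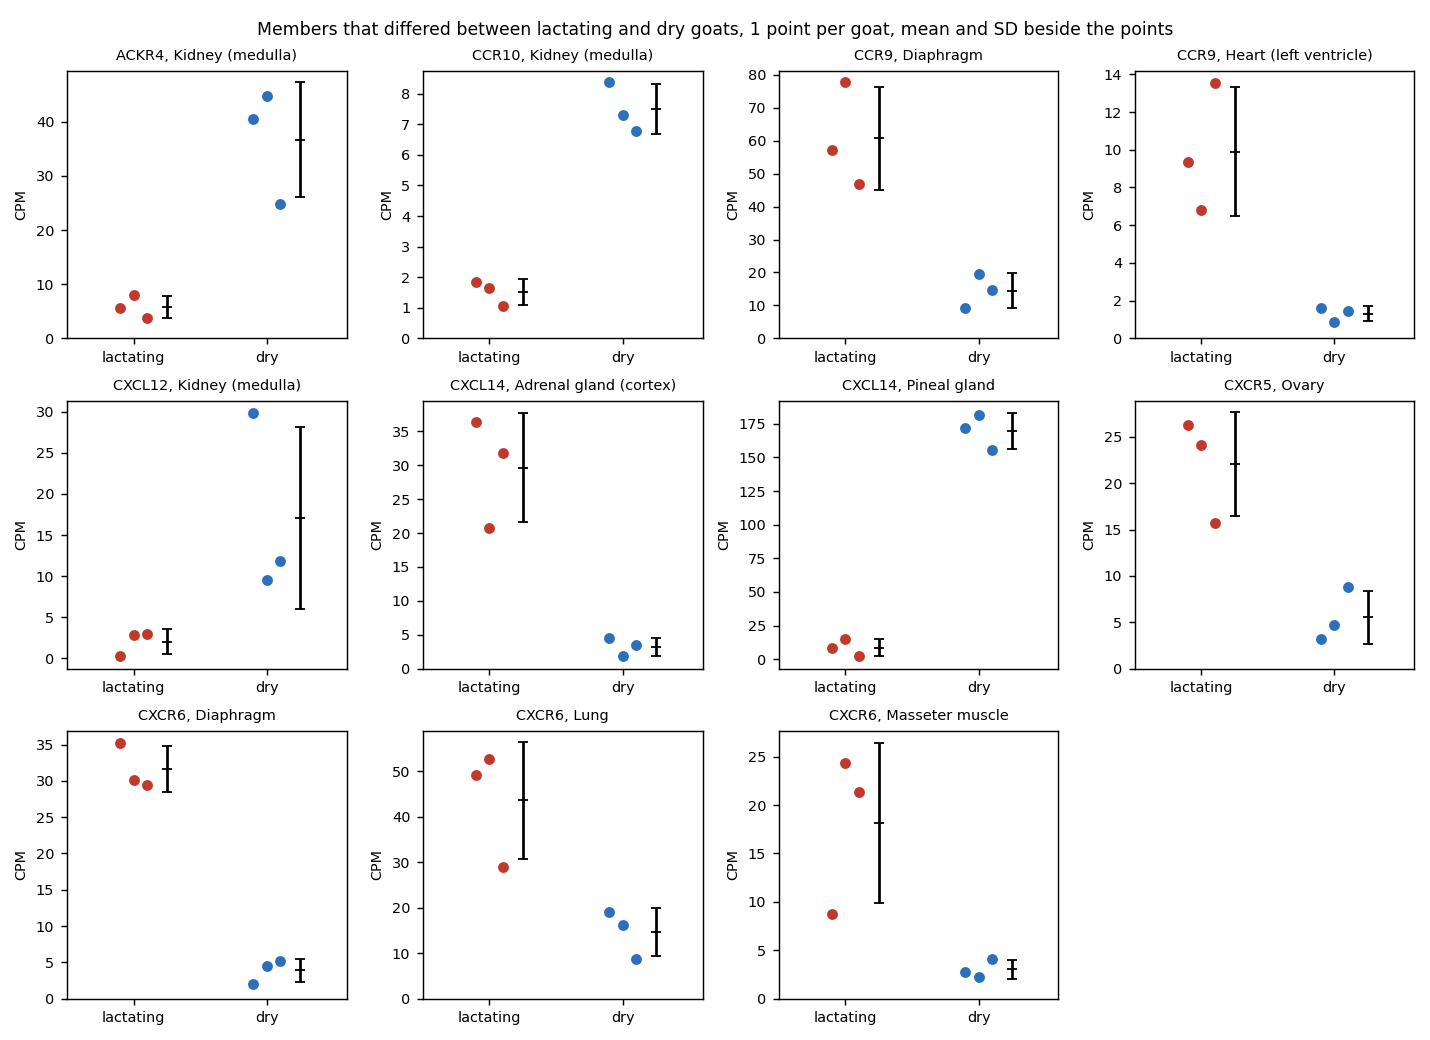
CPM per goat (points, linear axis) for the 11 pairs of a member and a tissue that passed edgeR's test, with 3 lactating goats in red, 3 dry goats in blue and the mean ± SD of each state beside them. The states do not overlap in any of the 11 panels; 7 panels are higher in lactation, and the 3 of kidney medulla and the pineal panel of CXCL14 are lower.

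CXCL14 moved in opposite directions in the adrenal cortex and the pineal gland. In adrenal cortex it was 36.4, 20.7 and 31.8 CPM in lactating goats 2, 3 and 6 and 4.45, 1.83 and 3.45 CPM in dry goats 54, 64 and 73 (log2 2.97, SE 0.373, adjusted p = 0.00191 in edgeR), where 2.1% of features rose. In pineal gland it was 8.64, 15.2 and 2.10 against 172, 182 and 155 CPM (-4.03, SE 0.534, adjusted p = 0.00416), where 4.86% of features fell. The 3 lactating pineal libraries are the ones whose profile lay closest to hypothalamus or rhinencephalon, and no fit without them is possible. Their correlation with the other tissue was 0.924, 0.915 and 0.870, against 0.904, 0.879 and 0.851 with pineal gland. In the plot of CXCL14 by tissue, no library outside the pineal gland exceeded 45.6 CPM. Endothelial markers summed to 14.5 to 98.9 CPM in lactating and 238 to 355 CPM in dry pineal glands, and T cell markers to 24.2 to 38.4 and 51.9 to 60.4 CPM. In adrenal cortex macrophage markers summed to 36.98 to 53.9 CPM in lactating and 17.4 to 31.8 CPM in dry goats. No macrophage gene passed edgeR's test there, while the fibroblast gene COL3A1 rose by 1.78 (adjusted p = 0.0104). The part of these cell types in the CXCL14 results was not tested.

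**Figure D4:**
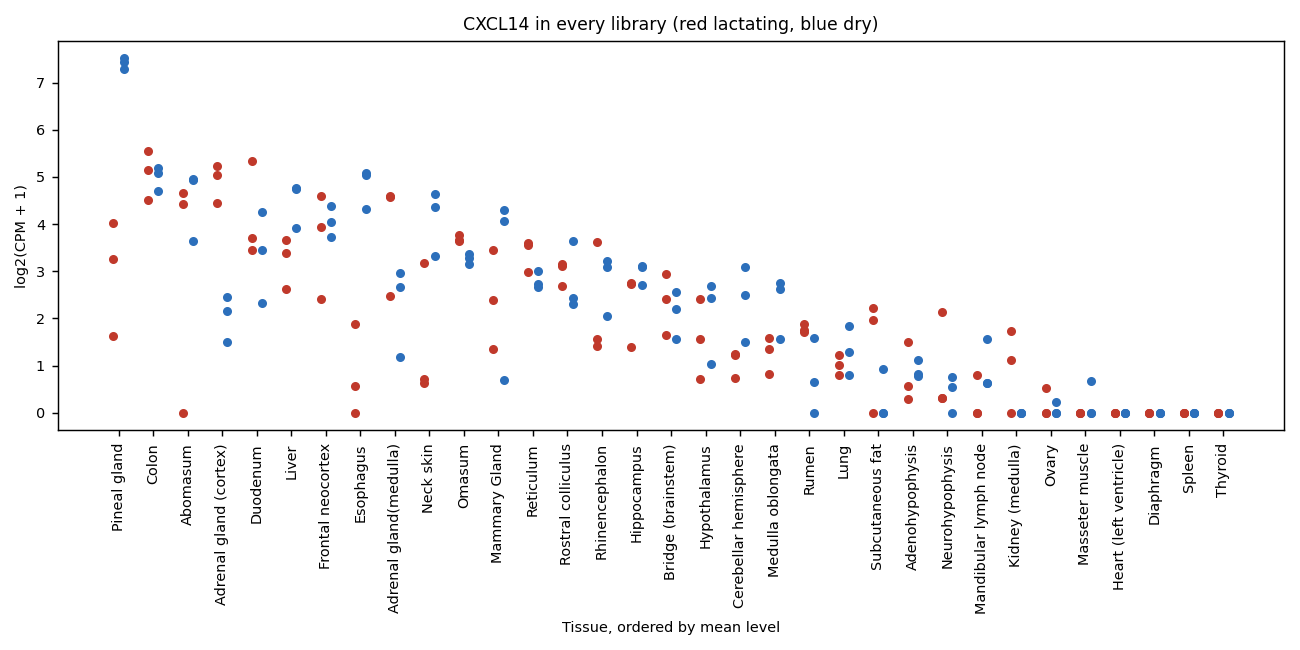
log2(CPM + 1) of CXCL14 per library in all 33 tissues, ordered by mean, with lactating goats in red and dry goats in blue. The dry pineal glands correspond to 155 to 182 CPM and the lactating ones to 2.10 to 15.2 CPM, the adrenal cortex shows the opposite order, and all libraries of heart, diaphragm, spleen and thyroid are at 0.

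Kidney medulla held 3 of the 4 lower calls, in a tissue where 9.11% of features fell and 6.02% rose. ACKR4 was 5.57, 7.98 and 3.78 CPM in lactating goats 2, 3 and 6 and 40.6, 44.8 and 24.8 CPM in dry goats 54, 64 and 73, a log2 change of -3.005 (SE 0.349, adjusted p = 0.000131 in edgeR). Its partner ACAD11 fell as well, from 14.9 CPM in dry to 1.15 CPM in lactating goats (-4.02, adjusted p = 9.37e-05), and so did the antisense lncRNA ACKR4-AS1 (-3.03, adjusted p = 0.000204). CXCL12 was 0.232, 2.87 and 2.94 against 29.9, 9.57 and 11.8 CPM (-3.35, SE 0.645, adjusted p = 0.00387), and LOC108634142 changed by -2.45 (adjusted p = 0.0935). CCR10 was 1.86, 1.64 and 1.05 against 8.39, 7.32 and 6.78 CPM (-2.64, SE 0.482, adjusted p = 0.00282). Its neighbour CNTNAP1 rose by 1.43 (adjusted p = 0.0201), and its neighbour PLEKHH3 changed by -0.42 (adjusted p = 0.719).

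None of these kidney medulla groups overlapped, and each call held with any 1 goat left out. Epithelial markers summed to 94.4 to 129 CPM in lactating and 20.9 to 27.5 CPM in dry kidney medulla, endothelial markers to 71.2 to 108.5 and 43.1 to 63.6 CPM, and T cell markers to 46.7 to 64.4 and 26.1 to 31.97 CPM with 11 of 11 genes higher in lactation. Their part in the results was not tested.

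CXCR5 in the ovary was 26.3, 24.1 and 15.7 CPM in lactating goats 2, 3 and 6 and 3.24, 4.67 and 8.76 CPM in dry goats 54, 64 and 73, a change of 1.59 (SE 0.417, adjusted p = 0.0425 in edgeR). The states did not overlap, and 5.71% of features rose in this tissue. The call was lost without any 1 of goats 2, 3, 6, 54 and 64, with adjusted p-values from 0.0964 to 0.153 in edgeR. It held only without goat 73, at 0.000473. BCL9L, which overlaps CXCR5, averaged 6.01 CPM in lactating and 1.92 CPM in dry ovaries (1.23, adjusted p = 0.185). T cell markers summed to 76.1 to 82.2 CPM in lactating and 35.3 to 36.6 CPM in dry ovaries, and epithelial markers to 3.17 to 8.08 and 40.2 to 168 CPM. Of the T cell genes only TCF7 passed edgeR's test in the ovary (log2 1.62, adjusted p = 0.00412). TCF7 also had the highest level of that list over all tissues, with goat means of 4.02 to 4.62 on the log2 scale, so it weighs most in such a sum. The part of these markers was not tested.

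Across all tissues, each goat's mean log2 CPM over its 33 libraries was compared with limma, 3 goats against 3. Of 38 members tested, 4 rose in lactation (background 4.06% of 31306 features) and 0 fell (background 4.7%), and 10 stood at an unadjusted p under 0.05 (background 27.6%). The median change of the 38 was -0.0434, against -0.0314 over all features tested. CXCR6 had goat means of 3.69, 3.80 and 3.66 on the log2 scale in goats 2, 3 and 6 and of 2.85, 3.06 and 2.75 in goats 54, 64 and 73. The difference was 0.83 (SE 0.095, adjusted p = 0.00198 in limma), with a higher lactating mean in 27 of 33 tissues. CCR9 had goat means of 2.62, 2.92 and 2.80 against 2.21, 1.46 and 1.62, a difference of 1.02 (SE 0.178, adjusted p = 0.0109) and higher in 29 of 33 tissues. Neither receptor's goats overlapped.

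CXCR3 had goat means of 0.55, 0.35 and 0.49 against 0.13, -0.36 and -0.38 on the log2 scale, and CCL1 of 0.42, 0.54 and 0.80 against -0.0089, 0.18 and -0.0043, without overlap in either. CXCR3 differed by 0.67 (SE 0.151, adjusted p = 0.0262 in limma, higher in 23 of 33 tissues) and CCL1 by 0.54 (SE 0.133, adjusted p = 0.0365, higher in 26 of 33). The CXCR3 call was lost without goat 2, 6, 64 or 73 and the CCL1 call without goat 3, 6, 54, 64 or 73. The CCL1 call was also lost without the filter on low levels (adjusted p = 0.0647). With any 1 goat left out, the calls of CXCR6 (adjusted p up to 0.0116) and CCR9 (up to 0.04996) held. Goats separated without overlap for 6 members with lactation higher (background 13.4%), among them CXCL16 and CCL28, and for 4 with dry higher (background 19.5%): CCL25, CCL24, CCR3 and ACKR4. CXCR6 and CCR9 are neighbours in the ARS1.2 annotation, where CXCR6 overlaps FYCO1 and CCR9 lies next to it. Whether their calls are separate results was not tested. FYCO1 differed by 0.41 (adjusted p = 0.0311 in limma, higher in 28 of 33 tissues).

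Scaling bears on the direction of all features. With library totals in place of TMM factors, the features called over all tissues went from 1271 higher and 1472 lower to 2737 higher and 602 lower, while 4 members were called under both. Within tissues, library totals moved the median of all features by over 0.1 on the log2 scale in 26 of 33 tissues, 21 of them towards higher values in lactation, and 18 of the 343 tested member pairs changed sign.

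**Figure D5:**
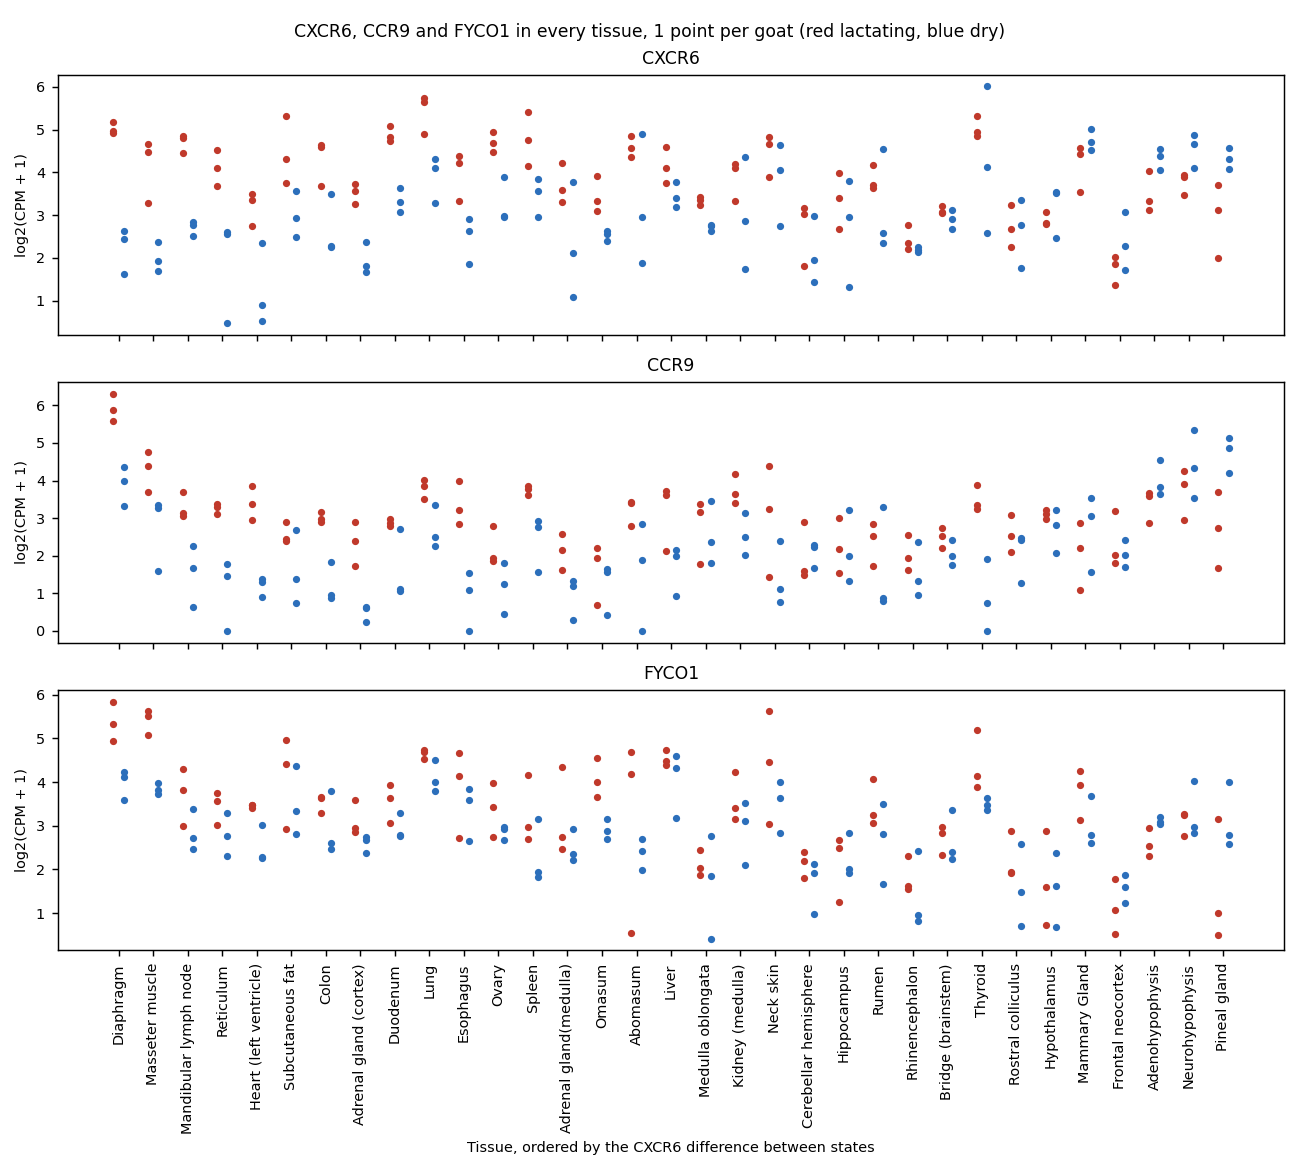
log2(CPM + 1) of CXCR6, CCR9 and the neighbouring gene FYCO1 per goat in the 33 tissues (lactating red, dry blue), ordered by the CXCR6 difference between states. CXCR6 has a higher lactating mean CPM in 27 tissues and CCR9 in 28, and in the pineal gland at the right edge both are lower in lactation.

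The tissue view of these receptors shows the spread behind the means. By mean CPM, CXCR6 was higher in lactation in 27 tissues, with no overlap of goats in 15, and fell outside the dry range on the low side in 3: pineal gland, neurohypophysis and adenohypophysis. CCR9 was higher in 28 tissues, with no overlap in 15, and lower with no overlap in 1, the pineal gland. Of all pairs of features and tissues, 9.02% separated with lactation higher and 5.75% with dry higher. Library totals, which CPM uses, moved the median of all features by -0.278 in pineal gland, -0.127 in neurohypophysis and -0.212 in adenohypophysis relative to TMM. All lactating libraries of the pineal gland and the adenohypophysis also lay closer to another tissue. In the 18 tissues without a library closest to another tissue, the CCR9 difference was 1.27 (adjusted p = 0.000853 in limma), higher in 18 of 18, and CXCR6 kept an adjusted p of 0.000399.

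The genes around the chemokine system were read from the same limma fit over all tissues, in which 4.06% of all features rose and 4.7% fell, with a median change of -0.0314. Of 28 genes that signal downstream of chemokine receptors, 1 rose, ARRB2, the arrestin that internalises receptors (log2 0.44), and 0 fell, with a median of -0.137. Of 16 leukocyte integrins, selectins and their ligands, 1 rose, the endothelial adhesion molecule PECAM1 (0.49), and 1 fell, the integrin subunit ITGA4 (-0.73). Among 13 chemokine inducers and NF-kB targets, the interferon factor IRF1 rose by 0.49 and the cytokine IL6 fell by 0.45. The 13 organisers of lymphoid tissue and 8 chemokine-like genes held 0 calls in either direction. Counts of 0 to 1 per list and direction are near these background shares.

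Among the cell type markers over all tissues, 1 of 11 T cell genes (TCF7, 0.44), 1 of 9 macrophage genes (CSF1R, 0.36) and 2 of 7 endothelial genes (VWF, 0.64, adjusted p = 0.0267 in limma, and PECAM1, adjusted p = 0.0479) rose. Of 9 B cell genes 1 fell (CR2, -0.48), and of 6 plasma cell genes 1 fell (JCHAIN, -0.92). The dendritic, natural killer, neutrophil, lymphatic endothelial, epithelial and fibroblast lists held 0 calls. The T cell list had a median change of -0.00292.

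Within tissues, where 0.925% of all pairs of features and tissues rose and 0.976% fell, 3 of 146 tested pairs of a T cell gene and a tissue rose and 0 fell. Of 182 endothelial pairs 6 rose and 2 fell, of 179 macrophage pairs 5 rose and 2 fell, of 153 fibroblast pairs 2 rose and 9 fell, and of 88 epithelial pairs 2 rose and 4 fell. Of 62 B cell pairs 0 were called, and of 69 plasma cell pairs 2 fell. Of 507 pairs of receptor signalling genes 3 rose and 1 fell.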

How the data were processed

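Total RNA of 33 tissues from 6 goats was extracted with the RiboPure kit and made into strand-specific libraries, per the labels' protocols. STAR, StringTie and edgeR are named in the submitters' processing notes, and their versions, their roles, the genome build and the use of strand in counting are not given in the sources used here. The authors deposited expected counts per feature and library, unscaled; 37.0% of the values above 0 were fractional, and all were rounded for the fits. The authors also deposited offsets on a natural log scale, made of library size and relative gene length, which served as an alternative scaling only. The tau index was computed here on log2(mean CPM + 1) and not taken from the deposited fraction from 0 to 1. The deposited lncRNA annotation served only to class features and find overlaps.

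CPM was computed here from each library's total. Lactating and dry goats, and tissues, were compared with edgeR 4.0.16 (R 4.3.3): filterByExpr with a minimum count of 10, TMM scaling, the quasi-likelihood F-test, two-sided, with Benjamini-Hochberg adjustment over all features at 0.05. The SE is the absolute log2 fold change over the root of F. The test over all tissues used limma 3.58.1 with eBayes and trend on goat means of log2 CPM (prior count 2) for features whose mean reached 1 CPM in some tissue. Alternatives were DESeq2 1.42.0, RLE size factors, no filter, lncRNA features left out, another prior count, each goat left out and the goat as a block. Library totals alone, the authors' offsets and leaving out libraries closest to another tissue were chosen after the data were seen. The tests were tried on simulated counts first.

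Lymph node and spleen, and duodenum and colon, come from the same goats, so the goat numbers of the labels pair them. Deviations from the tissue mean correlated between the same goat's libraries by 0.102 to 0.473 and by 0.0731 to 0.282, with the own goat best for 5 of 6 in each pair. The comparisons leave this pairing out, and the block was an alternative.

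The members and gene lists were chosen with earlier results of these data known. Any member could be named with its level, and the results of 1 member are not reported here. The naming rule took 6 receptor axes, every called member of a state comparison, the called members of a tissue pair and the highest member of each tissue. Of the last, only some are described, since CPM is not corrected for length and does not rank genes within a tissue, while neighbouring genes were chosen after the data were seen. All 42 symbols matched RefSeq assembly ARS1.2, which was used for names and neighbours. No sequences were used here.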

Additional observations from a re-analysis of the deposited data

Results flagged for a closer look

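In the tissue with the highest mean of each of the 42 members, the 6 libraries were searched for 1 far from the others, and 4 such groups were found. A single high library helps to make a tissue the highest, so the usual rate of about 1 in 20 groups by chance does not apply to groups chosen this way. CXCR5 in subcutaneous fat stood at 56.2 CPM in lactating goat 6, with the next library at 22.6. CXCL10 in the mammary gland stood at 26.2 CPM in lactating goat 3, with the next at 7.03. CCL27 in neck skin stood at 9.26 CPM in lactating goat 2, with the next at 3.72. The neck skin libraries of lactating goats 3 and 6 lay closer to another tissue. CCL17 in subcutaneous fat stood at 0.398 CPM in dry goat 73 and at 0 in the other 5 libraries, which is below the floor of 3 counts.

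The change of CXCL14 between states differed between the adrenal cortex and the pineal gland. The test of the difference itself, an interaction term in edgeR, gave 6.98 on the log2 scale (SE 0.705, adjusted p = 0.000113), with all 3 goats of each state on opposite sides in both tissues. Of 21769 features, 1002 passed that test. It had no goat term, so adrenal and pineal libraries of the same goat were taken as independent. The gene and tissues were chosen because CXCL14 had already been called in opposite directions there, so the value of 6.98 restates those calls and is not independent support. The 3 lactating pineal libraries lay closer to hypothalamus or rhinencephalon than to pineal gland.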

How the results depend on the processing

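Within tissues, the 11 calls became 32 without a filter on low counts, 30 with DESeq2 and 21 with library totals alone, and 10 to 16 with 1 goat left out. Over all tissues, the 4 calls became 2 to 3 with 1 goat left out, and 2 without goat 64 or goat 73. Each tissue against the others gave 213 higher calls, 217 with the replicate block and 267 without libraries closest to another tissue. Leaving out each goat in that fit was not run. Lymph node against spleen gave 0 calls, 2 without a filter on low counts, 1 with the replicate block and 0 to 2 with 1 goat left out, where goat 3 gave 1 and goat 54 gave 2. Neither of these tissues held a library closest to another tissue. Duodenum against colon gave 1 call, 2 without a filter on low counts, 3 without libraries closest to another tissue, 1 with the replicate block and 0 to 2 with 1 goat left out, where goat 2 gave 2 and goats 3 and 6 gave 0. Apart from CXCL12, the block changed no call of a member in the tissue pairs. No block is possible between states, which share no goat. A run without the filter tests more features and one without a goat has fewer libraries, while the cause of the other shifts was not tested. Of the alternatives for single members, 174 kept direction and call, 27 lost the call, 2 gained it and 0 turned direction. Most members lie near the floor of 3 counts in many libraries, and 343 of 1386 pairs of a member and a tissue could be tested between states.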
